A study of Mus musculus with 6 samples.

Results

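The urea cycle genes and the marker genes of hepatocytes beside the portal vein were examined in the livers of male C57BL/6 mice whose livers were made to express Sonic Hedgehog (SHH) or, as the control, green fluorescent protein (GFP). The set had 10 genes, chosen by name: Hal, Sds, Gls2, Cyp2f2, Hsd17b13 and Cdh1 for the portal end of the liver lobule, and Cps1, Ass1, Asl and Arg1 for the urea cycle. A probe set naming the gene alone was found for 8 of the 10, out of 22180 genes measured in all. Sds and Gls2 had none and were not analysed here. Each gene was read from 1 probe set, the one with the highest mean over the 6 arrays.

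There were 3 SHH livers (mice 26, 28 and 31) and 3 GFP livers (mice 13, 21 and 6), with 1 Affymetrix array per liver. Per the series' design text the DNA was delivered by hydrodynamic transfection, a fast injection of a large volume that drives DNA into hepatocytes, and fibrosis was the question asked of the model. Which share of hepatocytes took up the DNA, on which side of the lobule, the promoter that drove the gene and the age of the mice are all not stated in the labels. The RNA came from whole liver, so fewer cells of a type and less RNA per cell cannot be told apart. Shh itself, the introduced gene, had log2 signals of 4.57, 4.28 and 4.63 in SHH livers, against 3.43, 3.67 and 3.86 in GFP livers, and its difference of 0.84 did not pass over all genes (limma, adjusted p = 0.356). Array medians were 4.32 to 4.403 in the SHH group and 4.36 to 4.39 in the GFP group.

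Blood enters the lobule at the portal vein and leaves at the central vein, and hepatocytes differ along that path. Those near the portal vein take up amino acids, make glucose and turn ammonia into urea, while a thin sheath of cells around the central vein captures the remaining ammonia as glutamine. The urea cycle starts in the mitochondrion, where ammonia becomes carbamoyl phosphate and then citrulline, and is completed in the cytosol, where citrulline is joined to aspartate, split into arginine and fumarate, and released as urea and ornithine.

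None of the genes was found to change. Limma called 0 of the 8 measured genes higher and 0 lower in SHH livers at an adjusted p of 0.05, where it called 0% of all 22180 genes, and 0 of the 8 had an unadjusted p under 0.05, against 7.34% of all genes (3.33% higher and 4.01% lower). The differences of the 8 genes, SHH minus GFP on the log2 scale, ran from -0.21 to 0.19 with a median of 0.01, and 4 were above and 4 below 0. Over all genes 43.8% of the means were higher in SHH livers, 56.2% were lower, and the median was -0.03. The 95% intervals of the 8 differences lay between -0.56 and 0.53, and those of Cps1, Arg1 and Hsd17b13 were the narrowest.

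**Figure D1:**
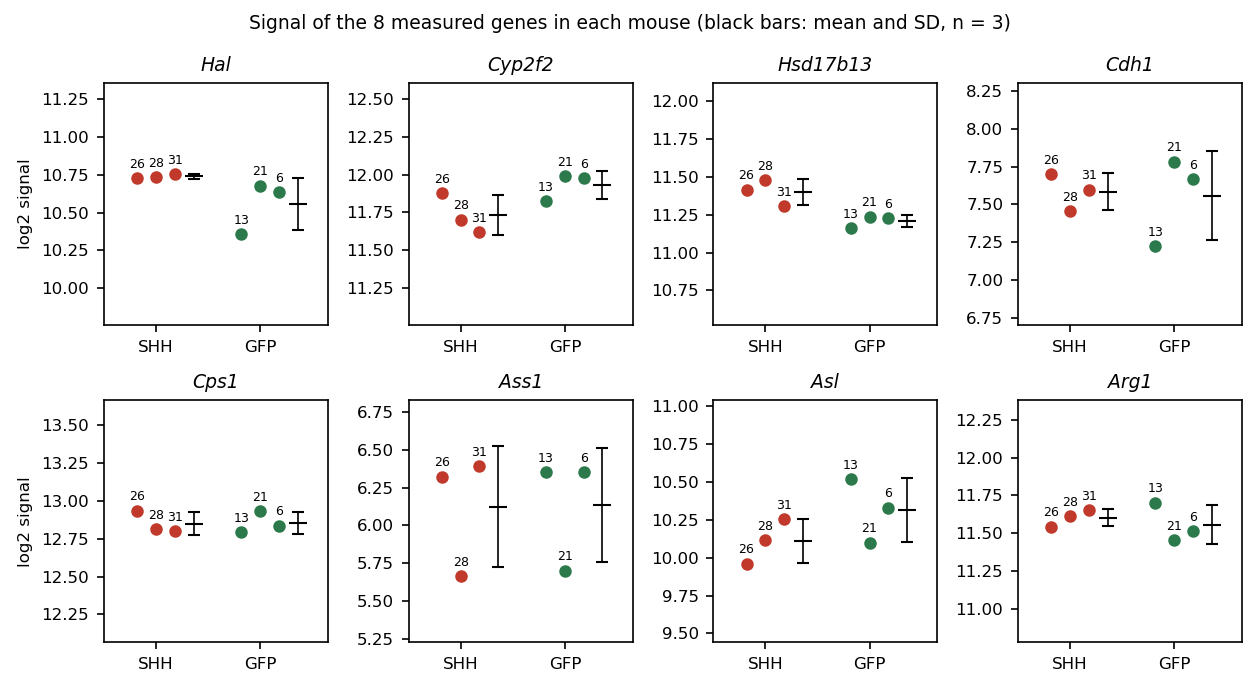
Log2 signal (vertical axis, of the same span in every panel) of each measured gene in the 3 SHH livers (red, left) and the 3 GFP livers (green, right), with the mouse number above each point and black bars for the mean and SD. The groups are apart for Hal and Hsd17b13, by small steps, and Ass1 is low in 1 mouse of each group.

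Among the portal genes, 2 of the 4 measured had groups that did not overlap, Hal and Hsd17b13, both with SHH livers higher; over all genes 5.26% were apart in that direction, 7.25% with SHH livers lower and 12.5% in either direction. The promoter windows of these 2 genes, and of Cyp2f2, whose mean lay on the other side of 0, are shown because they are the start regions of the portal genes with the smallest p. The sequences are from RefSeq on build GRCm38.p6, 250 bases before to 50 after the gene's start, 5′ to 3′ on the gene's strand. The table held windows for 4 of the 10 genes, these 3 and Ass1. Capitals mark any match on either strand to TTGCNNAA, a motif of the C/EBP factors, AGGTCA, the recognition hexamer of nuclear receptors, CAAAG, the core of the HNF4 motif, or TGACG, the core of the cyclic AMP element.

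Hal, chr10:93488518-93488817, plus strand: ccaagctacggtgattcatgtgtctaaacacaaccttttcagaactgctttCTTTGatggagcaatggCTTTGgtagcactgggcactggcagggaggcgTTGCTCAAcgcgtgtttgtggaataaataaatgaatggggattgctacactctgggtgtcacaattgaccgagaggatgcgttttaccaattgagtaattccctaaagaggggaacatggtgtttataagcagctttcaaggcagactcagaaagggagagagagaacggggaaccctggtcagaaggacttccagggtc
Hsd17b13, chr5:103977339-103977638, minus strand: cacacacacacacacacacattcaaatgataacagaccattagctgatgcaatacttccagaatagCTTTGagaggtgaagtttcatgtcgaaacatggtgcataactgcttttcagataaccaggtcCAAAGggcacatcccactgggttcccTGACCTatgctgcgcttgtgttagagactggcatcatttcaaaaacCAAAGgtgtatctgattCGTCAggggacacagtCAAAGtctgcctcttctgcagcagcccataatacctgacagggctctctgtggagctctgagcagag
Cyp2f2, chr7:27119705-27120004, plus strand: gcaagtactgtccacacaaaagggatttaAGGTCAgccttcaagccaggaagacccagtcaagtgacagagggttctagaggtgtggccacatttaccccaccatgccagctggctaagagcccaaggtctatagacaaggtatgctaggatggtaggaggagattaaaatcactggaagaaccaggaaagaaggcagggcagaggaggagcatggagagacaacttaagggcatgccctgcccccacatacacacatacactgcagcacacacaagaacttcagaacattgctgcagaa

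The Hal window held 1 match to the C/EBP motif, starting at base -150, and 2 to the HNF4 core. The Hsd17b13 window held 4 matches to the HNF4 core, 1 to the receptor hexamer and 1 to the cyclic AMP core, and the Cyp2f2 window held 1 to the receptor hexamer. No matches overlapped one another in these windows. The Ass1 window held 0 matches to any of the 4. Of all 32851 promoter windows of this length, 10.8% held the C/EBP motif, 16.3% the receptor hexamer, 53.9% the HNF4 core and 20.8% the cyclic AMP core. A match is a description of the letters and not a shown binding site.

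Hal encodes histidine ammonia-lyase, the first enzyme of histidine breakdown, which frees ammonia. Its log2 signal was 10.73, 10.74 and 10.75 in SHH mice 26, 28 and 31, against 10.36, 10.68 and 10.63 in GFP mice 13, 21 and 6. The 3 SHH livers were nearly the same and lay above every GFP liver, by little for GFP 21 and GFP 6 and by more for GFP 13. The difference of 0.18 (95% interval -0.11 to 0.48, 1.13-fold) did not pass (limma, adjusted p = 0.822) and became 0.08 without GFP 13.

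Hsd17b13 encodes a lipid droplet protein of the hydroxysteroid dehydrogenase family. It had 11.42, 11.48 and 11.31 in SHH livers, against 11.16, 11.24 and 11.23 in GFP livers. The lowest SHH liver was above the highest GFP liver, and of the 8 genes this one had the smallest unadjusted p. Its difference of 0.19 (interval -0.07 to 0.46, 1.14-fold) did not pass in limma (adjusted p = 0.791). It remained between 0.15 and 0.24 whichever mouse was left out.

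Cyp2f2, a cytochrome P450 found in portal hepatocytes and in club cells of the airway, gave 11.88, 11.70 and 11.62 in SHH livers, against 11.82, 11.99 and 11.98 in GFP livers. SHH 26 lay within the GFP range and the other SHH livers below it. The difference was -0.20 (interval -0.49 to 0.09; limma, adjusted p = 0.797), a mean 1.15-fold lower. A dimmer probe set of Cyp2f2, at 5.47, 5.65 and 5.25 in SHH livers and 5.59, 5.78 and 5.77 in GFP livers, differed by -0.25.

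Cdh1 encodes E-cadherin, the adhesion protein that joins epithelial cells and is stronger in portal than in central hepatocytes. Its signal was 7.70, 7.46 and 7.60 in SHH livers, against 7.22, 7.78 and 7.67 in GFP livers. The SHH values lay inside the GFP range, which GFP 13 widened. The difference was 0.03 (interval -0.35 to 0.40; limma, adjusted p = 0.983), -0.14 without GFP 13 and 0.14 without GFP 21, so no direction can be given. Bile duct cells also make E-cadherin. Their markers Krt19 and Epcam differed by -0.03 and -0.01, but both lay below the array median in every liver. The 13 measured bile duct genes averaged 4.09 to 4.11 in SHH livers, against 4.03 to 4.17 in GFP livers. Of these, 7 had higher and 6 lower means, and 0 were called. For 1 of them, Cd24a (0.35), SHH livers lay above every GFP liver, against 5.26% of all genes. The list median was 0.02, and 0.19 with genes above the median level only. The part of bile duct cells in the Cdh1 signal was not tested.

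**Figure D2:**
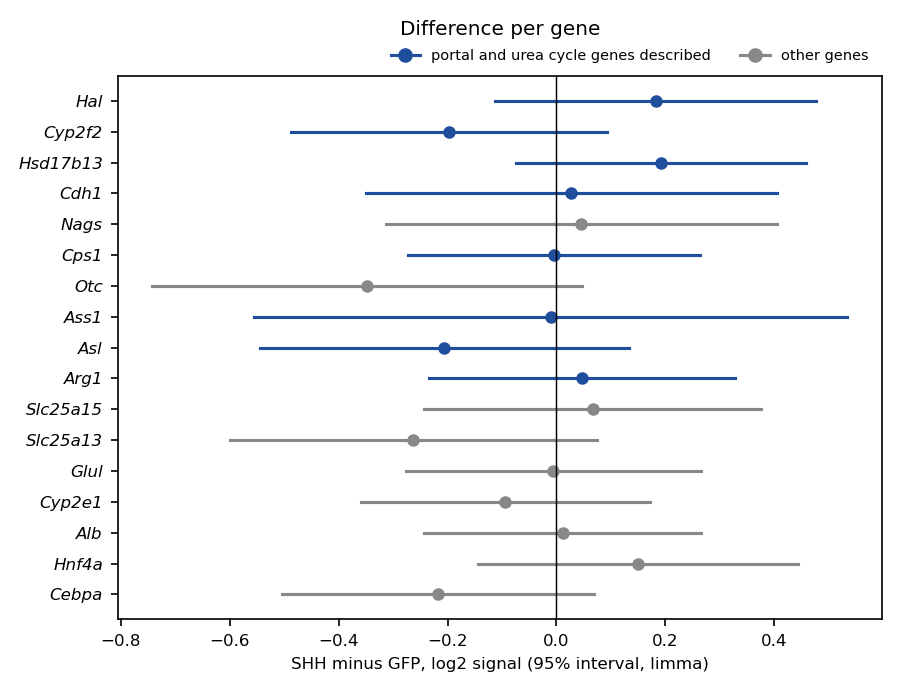
Difference in log2 signal, SHH minus GFP (point), with its 95% interval from limma (line), for the 8 genes described (blue) and for other genes of the urea cycle, the central vein and the hepatocyte (grey). Every interval spans 0, and the difference furthest from 0 is that of Otc at -0.35.

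The urea cycle genes were followed in the order of the reactions. Nags makes N-acetylglutamate, the activator without which the first step does not run. It gave 7.90, 8.36 and 8.02 in SHH livers, against 8.002, 8.23 and 7.91 in GFP livers. The groups overlapped, with a difference of 0.05. Cps1, the mitochondrial carbamoyl phosphate synthetase that takes in the ammonia, had 12.94, 12.81 and 12.80 in SHH livers, against 12.80, 12.93 and 12.84 in GFP livers. The difference of -0.00 had an interval of -0.27 to 0.26 (limma, adjusted p = 0.998), which bounds a change at 1.21-fold lower or 1.20-fold higher. Cps1 also lay close to the highest signals of the arrays (13.66 to 13.72), where array signals can understate a change, which was not tested.

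Otc encodes ornithine transcarbamylase, which forms citrulline. Its signal was 11.49, 11.25 and 10.87 in SHH livers, against 11.45, 11.71 and 11.49 in GFP livers. SHH 31 was the lowest and SHH 26 lay within the GFP range. The mean was 1.27-fold lower in SHH livers, with an interval on the log2 scale of -0.74 to 0.05, and did not pass (limma, adjusted p = 0.725).

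Ass1 encodes argininosuccinate synthase, which joins citrulline to aspartate. It had 6.32, 5.66 and 6.39 in SHH livers, against 6.35, 5.70 and 6.35 in GFP livers. One mouse of each group, SHH 28 and GFP 21, stood well below the other 4, and the means were 6.12 ± 0.40 in SHH and 6.14 ± 0.38 in GFP livers (SD, n = 3 each). Its spread within groups was the widest of the 8: 5.16% of the 11090 genes above the median level had a wider one. The difference of -0.01 therefore had the widest interval, -0.56 to 0.53 (limma, adjusted p = 0.998), and ran from -0.23 without GFP 21 to 0.22 without SHH 28. Ass1 is known as an abundant liver transcript, yet 71.0% of genes had a mean signal at or below that of its only probe set. How well that probe set reads the transcript was not tested, so the small difference says little about Ass1.

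Asl, argininosuccinate lyase, splits the product into arginine and fumarate. Its signal was 9.96, 10.12 and 10.25 in SHH livers, against 10.52, 10.10 and 10.33 in GFP livers. SHH 26 was the lowest and GFP 13 the highest, while the other 4 overlapped. The difference of -0.21 (interval -0.54 to 0.13; limma, adjusted p = 0.823) was -0.10 without GFP 13 and -0.31 without GFP 21.

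Arg1, the liver arginase that releases urea, gave 11.54, 11.61 and 11.65 in SHH livers, against 11.70, 11.46 and 11.51 in GFP livers. The SHH values lay inside the GFP range. The difference was 0.05 (interval -0.23 to 0.33; limma, adjusted p = 0.960). Arg1 is also made by some macrophages, whose marker Chil3 was at 3.38, 3.82 and 4.36 in SHH livers, against 2.72, 3.80 and 3.01 in GFP livers. Of a list of 10 genes set near such macrophages, not all of them markers, 7 had higher means and 0 were called. Cd163 (0.96), Msr1 (0.66) and Il4ra (0.49) had SHH livers above every GFP liver. Retnla (-0.20), Nos2 (-0.19) and Mrc1 (-0.03) had lower means. Chil3, Retnla, Nos2, Arg2 and Il10 lay below the array median in every liver. The list median was 0.17, and 0.49 with genes above the median level only. The list averaged 4.83 to 5.27 in SHH livers, against 4.66 to 4.83 in GFP livers, and that of SHH 31 was the highest. The part of macrophages in the Arg1 signal was not tested.

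The genes that feed the cycle were mostly a little lower, without passing. Of 23 measured genes for nitrogen supply and transport, 17 had lower means in SHH livers (against 56.2% of all genes), limma called 0 in either direction, 0 had an unadjusted p under 0.05, and the median difference was -0.15. The list averaged 9.72 to 9.79 in SHH livers, against 9.85 to 9.93 in GFP livers. The 4 with the smallest p were the aspartoacylase Aspa (-0.54), the ammonia channel Rhbg (-0.27), the arginine transporter Slc7a2 (-0.30) and Otc. Rhbg is also on the central vein list, and Otc is itself a step of the cycle. Slc25a13, the mitochondrial carrier that exports aspartate for Ass1, had 9.93, 9.90 and 9.49 in SHH livers, against 10.09, 10.03 and 9.99 in GFP livers, and the groups did not overlap. The ornithine carrier Slc25a15 differed by 0.07.

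A list set near histidine, serine and glutamine breakdown gave 14 lower means of 24 measured, with 0 called and a median of -0.10. SHH livers lay below every GFP liver for 7 of the 24 and above for 1, against 7.25% and 5.26% of all genes. The list averaged 9.49 to 9.54 in SHH livers, against 9.55 to 9.60 in GFP livers. It also held enzymes of other amino acids, such as proline. Shmt1, which links serine and glycine to the folate pool, was at 8.67, 8.53 and 8.53 in SHH livers, against 9.20, 8.92 and 9.16 in GFP livers. It was 1.43-fold lower with no overlap and did not pass (limma, adjusted p = 0.446). Hdc, which turns histidine into histamine and is typical of mast cells and other myeloid cells, differed by 0.70, the glycine methyltransferase Gnmt by -0.26 and the proline oxidase Prodh by -0.26. None of these 3 passed either.

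Other portal hepatocyte genes went both ways. Of 33 measured, 14 had higher and 19 lower means, 0 were called, and the median was -0.05. The unadjusted p was under 0.05 for 5 higher and 4 lower genes (limma), against 3.33% and 4.01% of all genes. The smallest p values were those of the lysosomal protease Ctsc, which leukocytes also make (1.99-fold higher), and the insulin-responsive binding protein Igfbp1 (2.35-fold higher), with Sult5a1 (1.62-fold) and the fatty acid elongase Elovl6 (1.47-fold) lower; none passed (limma, adjusted p from 0.409 to 0.552). The list averaged 9.31 to 9.35 in SHH livers and 9.35 to 9.42 in GFP livers.

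At the other end of the lobule, 27 of 32 measured central vein genes had lower means in SHH livers (against 56.2% of all genes). Limma called 0 of them in either direction, and the median was -0.13. The central list averaged 8.42 to 8.51 in SHH livers, against 8.55 to 8.63 in GFP livers. Averages of the 33 other portal genes were also lower, by little, at 9.31 to 9.3503 in SHH livers, against 9.3507 to 9.42 in GFP livers. For the 4 portal genes described they were 10.32 to 10.43 in SHH livers, against 10.14 (GFP 13) to 10.42 in GFP livers. Whether the ends of the lobule differed from each other was not tested. The central genes with the smallest p were Avpr1a (0.75), Slc1a4 (0.43), Cyp2a5 (-0.68) and the drug-sensing receptor Nr1i3 (-0.82), and none passed. Glul, the glutamine synthetase of the last ring of cells, gave 11.28, 11.37 and 11.45 in SHH livers, against 11.31, 11.36 and 11.45 in GFP livers, a difference of -0.01 (interval -0.28 to 0.26). The ethanol-oxidising Cyp2e1 differed by -0.09.

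**Figure D3:**
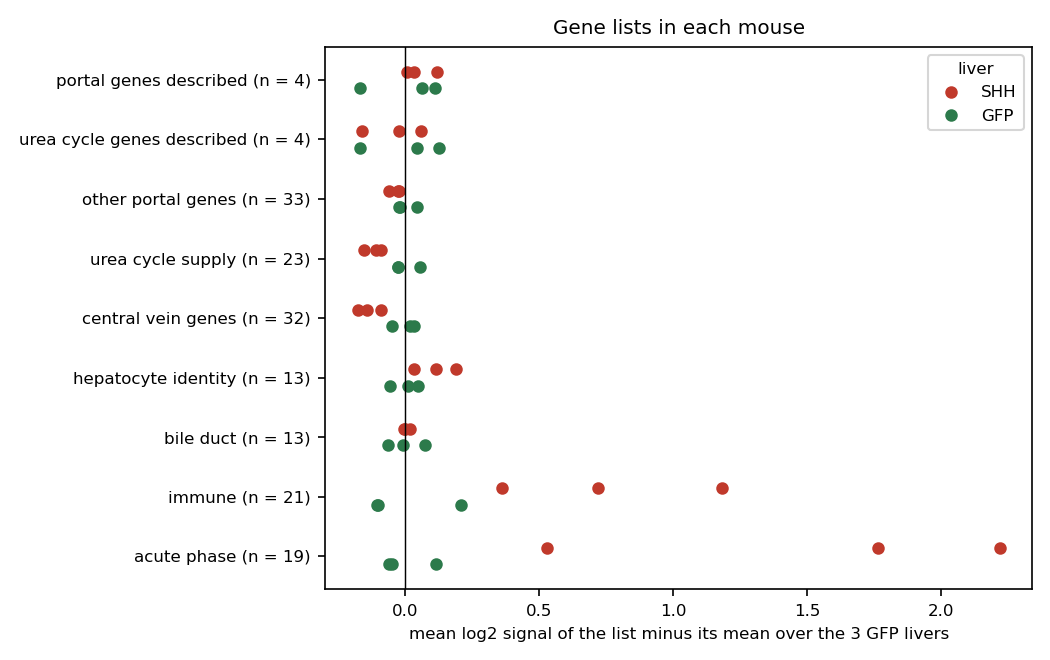
Mean log2 signal of each gene list in each liver, as the difference from the mean of the 3 GFP livers (horizontal axis), with SHH livers in red above GFP livers in green. The averages of the portal and of the urea cycle genes described run from -0.17 to 0.13, while the immune list reaches 1.18 and the acute phase list 2.22. Single genes moved further than these averages, such as Ass1, at 5.66 in SHH 28 against a GFP mean of 6.14.

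Most hepatocyte identity genes had slightly higher means in SHH livers, 11 of 13 measured, with 0 called and a median of 0.13. Alb, serum albumin, differed by 0.01. The fibrinogen chains Fga (0.53) and Fgb (0.31) were furthest apart, and Fgb also belongs to the acute phase list. Among the regulators of hepatocyte genes, Hnf4a differed by 0.15, Cebpa by -0.22 with no overlap, and Cebpb by 0.15. Foxa3 was 1.56-fold higher, at 8.19, 8.23 and 7.94 in SHH livers, against 7.49, 7.35 and 7.59 in GFP livers, and did not pass (limma, adjusted p = 0.409). Of the 25 regulators measured, 10 had higher means and 0 were called.

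Wider separations were seen in other programmes of the same livers, although limma called none of their genes. Of the 19 acute phase genes measured, 18 had higher means in SHH livers (against 43.8% of all genes) and 0 were called. An unadjusted p under 0.05 (limma) was found for 18, all higher, against 3.33% of all genes. This list and the immune list were chosen with earlier results of these data known, so their counts are a description only. Averages of this list were 9.43 in SHH 26, 11.13 in SHH 28 and 10.67 in SHH 31, while GFP livers lay at 8.84 to 9.02. Mt2 gave 8.21, 12.24 and 11.45 in SHH livers, against 6.43, 6.45 and 6.11 in GFP livers (limma, adjusted p = 0.356), and Saa2 7.60, 12.85 and 11.33 in SHH livers, against 6.46, 7.996 and 6.95 in GFP livers (adjusted p = 0.556). The 21 immune genes averaged 5.38 to 6.20 in SHH livers, against 4.91 to 5.23 in GFP livers, all 21 with higher means and 0 called. Without SHH 26, limma called 7 acute phase and 5 immune genes. The 8 genes described averaged 10.31, 10.20 and 10.30 in these SHH livers, against 10.24, 10.23 and 10.32 in GFP livers. The part of immune cells and of the acute phase in the small differences of single genes was not tested.

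**Figure D4:**
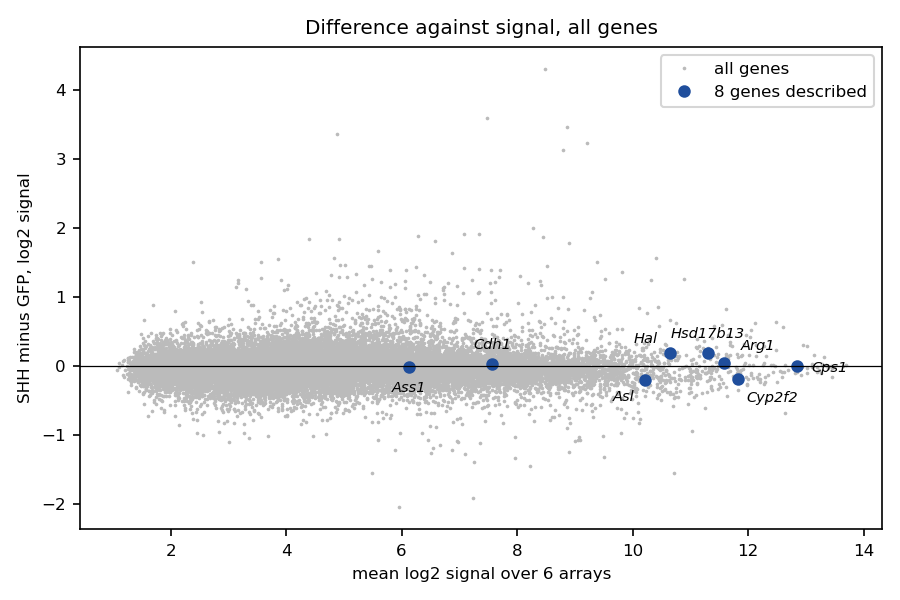
Difference in log2 signal, SHH minus GFP (vertical axis), against the mean log2 signal over the 6 arrays (horizontal axis) for all 22180 genes (grey), with the 8 genes described in blue. The 8 lie between -0.21 and 0.19, inside the band of all genes.

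The remaining lists stand near single members. Of 12 cytochrome P450 family 2 genes set beside Cyp2f2, 10 had lower means, with Cyp2u1 2.04-fold lower and Cyp2b9 2.62-fold higher. Cyp2a5 and Cyp2e1 are on both this list and the central vein list. Of 20 lipid droplet and related genes set beside Hsd17b13, 14 had lower means and the median was -0.20. The droplet-forming proteins Fitm1 (1.86-fold lower) and Fitm2 (1.46-fold lower) were on the other side of 0 from Hsd17b13 itself. Of 15 adhesion and junction genes set beside Cdh1, 8 had lower means, and Cldn3 differed by -0.31 and Cdh2 by -0.20. Limma called 0 genes of these 3 lists. The 15 endothelial and stellate cell genes had a median of 0.02, with 8 means higher and 0 called. Their median was -0.20 without SHH 31 and 0.07 without SHH 28, so it gives no direction.

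The 8 genes did not move as 1 unit from mouse to mouse. Over the 6 arrays Hal and Asl had a Pearson r of -0.81, Cdh1 and Arg1 one of -0.87, and Hal and Cdh1 one of 0.72. These values share the same 6 arrays and the same normalization, and GFP 13, which was low for Hal and Cdh1 and high for Asl and Arg1, enters each of them. They are among the stronger pairs. Others were near 0, such as Hsd17b13 and Arg1 (r = -0.03) and Cyp2f2 and Asl (r = -0.08). The part of array noise in these values was not tested. The genes most like the mean of the urea cycle genes were Uqcrq (r = 0.99), Arid4a (r = 0.98), Ybx1 (r = 0.98) and Gpha2 (r = 0.98), and those most like the mean of the portal genes were Pabpc1 (r = 0.98), Ddx10 (r = 0.98), Crb3 (r = 0.98) and Tuft1 (r = 0.97). Of the 11090 genes above the median level, 135 had an r over 0.9 with the urea cycle mean and 56 with the portal mean. The urea cycle mean leans on Ass1, whose SD within groups (0.39) was wider than those of Cps1 (0.07), Arg1 (0.10) and Asl (0.18).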

How the data were processed

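Expression was measured on 6 arrays, 1 per liver. The deposited values are log2 signals that the authors made with RMA (background correction, equal distributions, 1 value per probe set), per the submitters' processing notes, which give no version. The table held 41345 probe sets. Platform annotation named 1 gene for 23521 of them and several for 1814, and 16010 were unnamed here. A gene with several probe sets of its own was read from the brightest on average, giving 22180 genes. A linear model (limma 3.58.1, R 4.3.3, moderated by eBayes, two-sided) set SHH against GFP livers with no covariate and no filter, and p-values were adjusted by Benjamini-Hochberg at 0.05 over all genes. The script was tested on simulated data. No permutation test was run, since 3 mice against 3 allow no exact p under 0.1. The number of arrays limits the precision. The labels do not name batches.

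Gene lists are described by counts and medians, with no set test. The text names the genes of the set, up to 4 genes per list by smallest unadjusted p, a fixed group of urea cycle, zonation and cell type genes, and up to 4 genes per pattern by correlation. Shh, Mrc1, Retnla, Nos2, Arg2 and Il10 are named besides. The genes and lists were chosen with earlier results of these data known. Alternatives were other probe set choices, genes above the median level only, a second quantile normalization, equal array medians, other variance models, array weights, every probe set on its own, a threshold of 0.1 and each mouse left out.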

Additional observations from a re-analysis of the deposited data

How the results depend on the processing

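Under every alternative run, 0 of the 8 genes were called in either direction, and the lowest adjusted p of any of them in limma was 0.642. Over all genes the count at 0.05 was also 0 for every alternative fitted on genes, except without SHH 26. The 0 of 8 therefore says little about these genes in particular. Counts over all genes were not made at 0.1 or for every probe set on its own. The median of their differences stayed between -0.04 (without SHH 26) and 0.07 (without SHH 28) as mice were left out. Of 122 single-gene results under alternatives, 106 kept their direction and 16 reversed, all for Cps1, Ass1, Arg1 or Cdh1, whose differences were near 0. Many of the 106 were fixed in advance. Other variance models, genes above the median level only and every probe set on its own reused the same signals, so no direction could change. The choice of probe set could not change a gene with 1 probe set. Cdh1 became -0.0505 with the mean of all probe sets and -0.13 with the probe set of the largest interquartile range, which is its dimmer probe set. Ass1 became 0.0110 with a second quantile normalization and 0.0121 with equal array medians, and Cps1 became 0.0189 with equal array medians and 0.0166 with array weights. Leaving out 1 mouse at a time gave -0.0462 to 0.0349 for Cps1, -0.23 to 0.22 for Ass1, -0.00303 to 0.12 for Arg1 and -0.14 to 0.14 for Cdh1. The cause was not tested. Without SHH 26, limma called 30 genes higher and 16 lower over all genes; among the lists these included 5 immune genes, 7 acute phase genes and 1 cytochrome P450 gene. No paired analysis was possible because no mouse number occurs in both groups. Signals near the top or bottom of the array scale limit what a small difference can show.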
